A study of Mus musculus with 14 samples.

Results

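The expression response of the uterus to conditioned medium of human amniotic membrane-derived mesenchymal stem cells (AMSC-CM) was set against the response of the ovary, gene by gene and mouse by mouse. RNA-seq libraries of the ovary and the uterus of 3 OC mice and 4 OT mice were used, 14 libraries in 4 groups. All mice were female C57BL/6J, 28 weeks old, and all had received pregnant mare serum gonadotropin and, 48 h later, human chorionic gonadotropin by the intraperitoneal route, 10 IU each, before the treatment. The OT mice (old treatment) then received AMSC-CM 6 times into the tail vein, 4 d apart, with 1 µL for each g of body weight, and the OC mice (old control) received normal saline. The medium was an equal mix from cells of 3 donors, concentrated on a 3 kDa filter. The labels give an ovary and a uterus library the same mouse code, such as OC1, and these were taken to come from a single mouse, although the labels do not say so in words.

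The values were FPKM (fragments scaled to transcript length and to the mapped fragments of a library) of 21853 protein-coding genes. Of these, 14557 genes averaged 0.5 FPKM or more over the 14 libraries and were compared. For each gene and mouse, log2(FPKM + 0.1) of the ovary was subtracted from that of the uterus, and the OT mice were compared with the OC mice. This tissue difference equals the uterus response minus the ovary response, where a response is OT minus OC within a tissue. A positive tissue difference therefore means that the uterus response was the more positive of the pair. A gene was called when a log2 value was 1 or more in size and its limma p, before adjustment, did not exceed 0.05.

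The ovary produces oocytes and steroid hormones from follicles and corpora lutea, and the uterus consists of a muscular wall around an endometrium with luminal and glandular epithelium. Both organs lie next to fat, and the uterus continues through the cervix into the vagina, whose lining is a stratified squamous epithelium. Keratins mark such epithelia, and perilipins, adiponectin and lipid enzymes mark adipocytes. In bulk tissue, fewer cells of a type and less RNA per cell cannot be told apart.

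The tissues held their own markers. The summed FPKM of 20 genes of steroid synthesis and corpus luteum was 7982 to 10124 in the ovaries and 167 to 262 in the uteruses. That of 18 smooth muscle genes was 9696 to 17768 in the uteruses and 1677 to 3797 in the ovaries. The uterus library of OT1 stood apart. It had the highest total FPKM, 577494 against 374816 to 471907 in the other 13 libraries, and it held Upk3a, a uroplakin of the bladder lining, at 48.7 FPKM and Ucp1, the uncoupling protein of brown fat, at 210 FPKM. Upk3a was listed at 0 in the other uteruses, and Ucp1 at 0 in all of them but OT3 (0.112). Both genes were chosen after their values had been seen, and for some results below the values without OT1 are given as well.

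More genes passed the cutoffs in the uterus than in the ovary. In the ovary, 56 genes were called higher and 16 lower in OT mice (0.495% of the genes tested), and in the uterus 308 were called higher and 92 lower (2.75%). The tissue difference was called for 261 genes in which the uterus response was more positive (1.79%) and for 91 in which it was more negative (0.625%), 352 in all (2.42%). The 2 groups of mice did not overlap in the difference for 1106 genes (7.60%). The median SE was 0.13 for the ovary response, 0.22 for the uterus response and 0.26 for the tissue difference. No gene passed a Benjamini-Hochberg adjusted p under 0.05 in limma, and the smallest adjusted p in limma was 0.76 for the tissue difference, 0.50 for the ovary and 0.49 for the uterus. At an unadjusted p under 0.05 there were 829 genes for the tissue difference, against 728 that 5% of the genes tested would give. There were 1221 for the uterus response and 653, fewer than 728, for the ovary response. Each gene below is therefore described by its values in all libraries, and the unadjusted p serves as a cutoff alone. Without OT1, 211 genes were called with a more positive and 64 with a more negative uterus response.

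**Figure D1:**
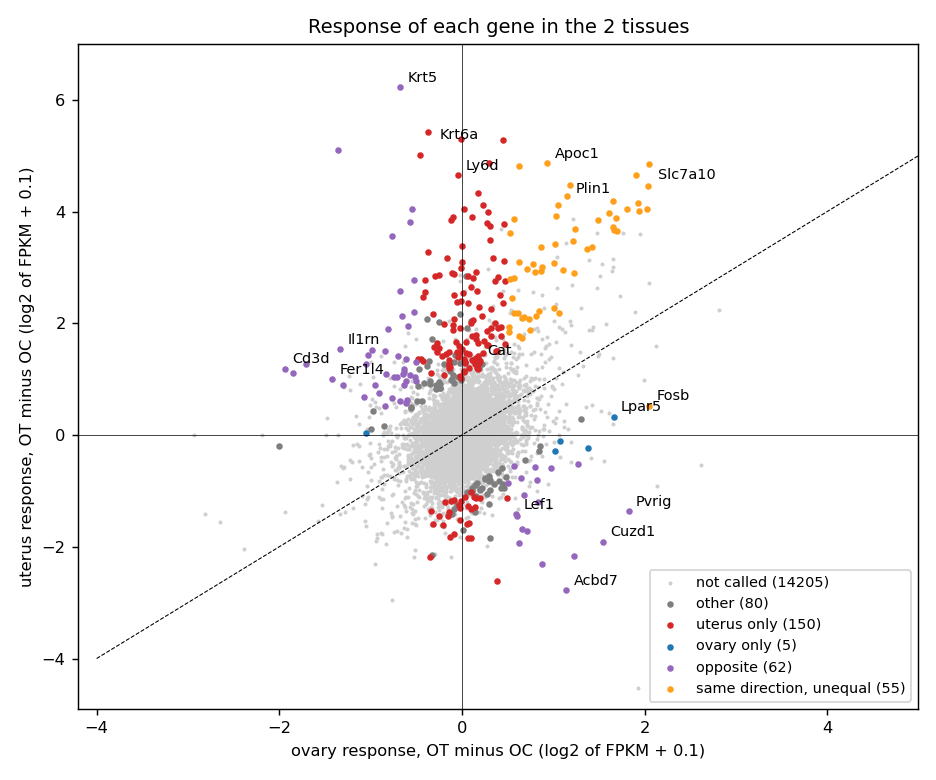
Ovary response (x axis) against uterus response (y axis) of the 14557 genes, OT minus OC on the scale of log2(FPKM + 0.1). The dashed line marks equal responses, and colours mark the classes of the 352 genes called for the tissue difference: 150 uterus only, 5 ovary only, 62 opposite, 55 in the same direction but unequal and 80 other. The called genes spread further along the uterus axis than along the ovary axis.

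The 352 genes fell into classes by their responses. For 150 genes, the uterus response was called and the ovary response was under 0.5 on the log2 scale, and these were the uterus-only genes. For 5 genes the reverse held. In 62 genes the responses were at least 0.5 in both tissues and of opposite sign, in 55 they were at least 0.5 with the same sign, and 80 genes fitted none of these. Of the 150 uterus-only genes, 120 rose and 30 fell in the OT uteruses. The median uterus response of the 120 genes was 1.90, with a median ovary response of 0.05, and 50 of them had a mean under 0.5 FPKM in the OC uteruses, so that much of this class came up from near the floor. In the per-mouse difference, which helped to choose them, all 4 OT mice lay above all 3 OC mice in 89 of the 120 genes. The groups did not overlap in either direction for 7.60% of all genes. The highest of the 4 OT mice was OT1 in 61 of the 120 genes, OT3 in 46, OT2 in 7 and OT4 in 6. For the 30 genes that fell, the median uterus response was -1.35 and the median ovary response -0.01. Their median level in OC uteruses was 4.88 FPKM, well above that of the genes that rose (0.754 FPKM).

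Many genes of stratified squamous epithelium were called higher in the OT uteruses. Krt6a, Krt13, Krt15 and Ly6d were in the uterus-only class. Krt5, Sprr1a and Lypd3 were in the opposite class, with under 0.5 FPKM in every ovary. Of 48 genes on a list of keratins, desmosome genes and cornified envelope genes, 33 were tested. Of these, 17 were called with a more positive and 1 with a more negative uterus response (54.5%, against 2.42% of all genes). The median tissue difference of the list was 1.67, against 0.02 over all genes tested, with a median ovary response of -0.09 and a median uterus response of 1.77. None of the 33 genes was called in the ovary, where 0.495% of all genes tested were called. At that share, a list of this size would hold few calls or none. Krt5 (chr15:101707070-101712898, GRCm38), the keratin of basal cells, had the largest tissue difference among all genes tested. In the uterus, Krt5 was at 0.457, 2.81 and 0.357 FPKM in OC mice and at 37.1, 11.7, 299 and 159 FPKM in OT1 to OT4. In the ovary it was at or under 0.127 FPKM in every library. The OT and OC uteruses did not overlap, and OT3 and OT4 were the highest. The tissue difference of Krt5 was 6.90 (SE 1.04, n = 7 mice, adjusted p = 0.76 in limma). This SE rests on a variance trend set after results had been seen, and with limma's default trend Krt5 and, among the genes below, Sprr1a, Krt13 and Krt15 were not called.

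In the other keratins of this kind OT3 and OT4 were again the highest OT uteruses. Krt13, a keratin of the upper layers of mucosal epithelium, was at 1.86, 5.1 and 0.423 FPKM in OC uteruses and at 29.7, 19.6, 287 and 132 FPKM in OT uteruses, and at or under 0.307 FPKM in every ovary. Krt15, a basal keratin, was at 0.548, 0.73 and 0.167 FPKM in OC uteruses and at 2.82, 4.25, 141 and 46.1 FPKM in OT uteruses. Krt6a, a keratin of suprabasal and wounded epithelium, was at 0.0522, 0.428 and 0 FPKM in OC uteruses and at 6.94, 1.25, 32.5 and 17.9 FPKM in OT uteruses. The uteruses of the groups did not overlap in any of these 3 genes, which was so for 11.7% of all genes tested. The 3 genes had been chosen by calls on the same values. Sprr1a, a cornified envelope precursor, had another order, with 0.827, 1.67 and 1.09 FPKM in OC uteruses and 139, 7.39, 81 and 39.6 FPKM in OT1 to OT4. Its tissue difference was 6.45 (SE 1.16). Ly6d, a surface protein of keratinocytes and of early B cells, was expressed in the ovary as well. Ly6d was at 1.17, 2.47 and 0.593 FPKM in OC uteruses and 83.6, 22.3, 29.1 and 21.7 FPKM in OT uteruses, while the ovaries held 5.89 to 7.31 FPKM in OC mice and 3.97 to 15.6 FPKM in OT mice. The ovaries overlapped and the uteruses did not (tissue difference 4.69, SE 0.83, adjusted p = 0.76 in limma). The other members called with a more positive uterus response were Krt14, Lypd3, Krt4, Pkp1, Trp63, Calml3, Serpinb5, Grhl3, Anxa8, Lgals7 and Perp, with differences from 4.58 for Krt14 down to 1.34 for Perp, among them Trp63, the transcription factor of basal cells, at 3.12. Cldn1, a tight junction claudin, was the member called the other way, at -1.20. Grhl3 (2.48) kept its call without OT2 alone among the 7 mice and was at 1.86 without OT1.

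The summed FPKM of the 47 list members in the file was 196 to 275 in the OC uteruses and 342 to 1459 in the OT uteruses, against 118 to 181 in the ovaries of both groups. It was lowest in OT2 and highest in OT3 among the OT uteruses. Of the list members, 10 were at 0 in every OC uterus and 3 in every OT uterus. Urothelial genes had another order over the OT uteruses. On the log2 scale, the median of 10 tested urothelial genes was 5.12 above the OC mean in OT1, against 1.13, 0.03 and 0.34 in OT2 to OT4. The stratified epithelium list lay 0.97, 0.78, 2.72 and 1.84 above it in OT1 to OT4. Without OT1, 16 stratified epithelium genes were called with a more positive uterus response. With the mean uterus minus ovary difference of the adipocyte genes in each mouse as a covariate, 7 were. The part that differences in how much of another tissue each uterus sample held have in this result was not tested. When a mean of at least 0.5 FPKM was asked for in each tissue, 19 of the 33 stratified epithelium genes were tested and 6 of them were called.

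Genes of adipocytes leaned upward in both tissues, and more so in the uterus. All 30 genes of an adipocyte list were tested, and 12 were called higher in the OT ovaries and 24 in the OT uteruses. Over all genes tested, 0.385% were called higher in the ovary and 2.12% in the uterus. For a more positive uterus response 19 were called (63.3%, against 2.42% of all genes), with none called the other way. The list had a median ovary response of 1.14, a median uterus response of 3.46 and a median tissue difference of 2.07. All 30 differences were above 0, against 7583 of 14557 over all genes tested. Plin1 (chr7:79720218-79732903), which coats lipid droplets, was at 14.9, 9.41 and 17.5 FPKM in OC ovaries and 71.9, 47.8, 12.4 and 19 FPKM in OT ovaries. In the uterus Plin1 was at 1.98, 6.63 and 4.35 FPKM in OC mice and 370, 35.1, 72.7 and 36.2 FPKM in OT mice. The OC and OT ovaries overlapped, and all 4 OT uteruses lay above the OC uteruses. The tissue difference of Plin1 was 3.12 (SE 0.77, n = 7 mice, adjusted p = 0.764 in limma).

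Slc7a10, an amino acid transporter of the adipocyte surface, did not overlap between the groups in either tissue. Of all genes tested, 5.88% did not overlap in the ovary and 11.7% in the uterus. Slc7a10 was at 0.565, 0.683 and 1.49 FPKM in OC ovaries against 7.93, 7.75, 1.5 and 2.18 FPKM in OT ovaries, and at 0.09, 0.73 and 0.894 FPKM in OC uteruses against 56.8, 9.05, 13.5 and 8.02 FPKM in OT uteruses. The ovary response was 2.05 and the uterus response 4.84. Gpd1, which makes the glycerol phosphate backbone of triglycerides, showed less in the ovary. It was at 6.25, 6.32 and 4.84 FPKM in OC ovaries and 14.2, 14.5, 3.25 and 8.06 FPKM in OT ovaries, against 1.1, 2.96 and 2.99 FPKM in OC uteruses and 287, 11.4, 20.3 and 17.5 FPKM in OT uteruses, and its tissue difference of 3.31 (SE 0.97) was the largest of the list. Klb, the co-receptor of the fasting hormone FGF21, was at 0.282 to 0.336 FPKM in OC ovaries and 3.93, 1.44, 0.316 and 0.564 FPKM in OT ovaries, where its response did not pass the test. Its uterus response was 3.86 and its tissue difference 2.36 (SE 0.72), which was not called with the pairing ignored or with the mouse as a random block. Adipoq, the adipokine adiponectin, rose in both tissues, by 1.70 and 3.65, and its tissue difference of 1.95 (SE 0.78, adjusted p = 0.807 in limma) lost its call without OC1 (1.39), OC3 (2.13), OT1 (1.78) or OT3 (1.38). Pparg, Plin4 and Scd1 were the adipocyte genes in the uterus-only class. Pparg, the nuclear receptor that directs adipocyte formation, had an ovary response of -0.01 and a tissue difference of 2.42.

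The pattern over single mice differed between the tissues. The adipocyte list of OT1 to OT4 lay 2.13, 1.53, 0.05 and 0.70 above the OC mean in the ovary, by its median gene, and 5.47, 2.03, 3.39 and 2.71 above it in the uterus. The per-mouse difference of the list lay 3.18, 0.19, 3.33 and 1.68 above the OC mean in the same order, and the OC mice ranged from -0.86 to 0.55. OT2 lay inside the range of the OC mice, and OT3, whose ovary was at the OC level, had the largest difference. The summed FPKM of the list was 661 to 891 in OC ovaries, 735 to 3763 in OT ovaries, 436 to 721 in OC uteruses and 2472 to 25734 in OT uteruses. Without OT2, 27 of the 30 genes were called for the tissue difference, without OC1 12, and without OC3, OT1 or OT3 13 each. With no pairing of ovary and uterus, 9 genes were called, and with the mouse as a random block 10.

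**Figure D2:**
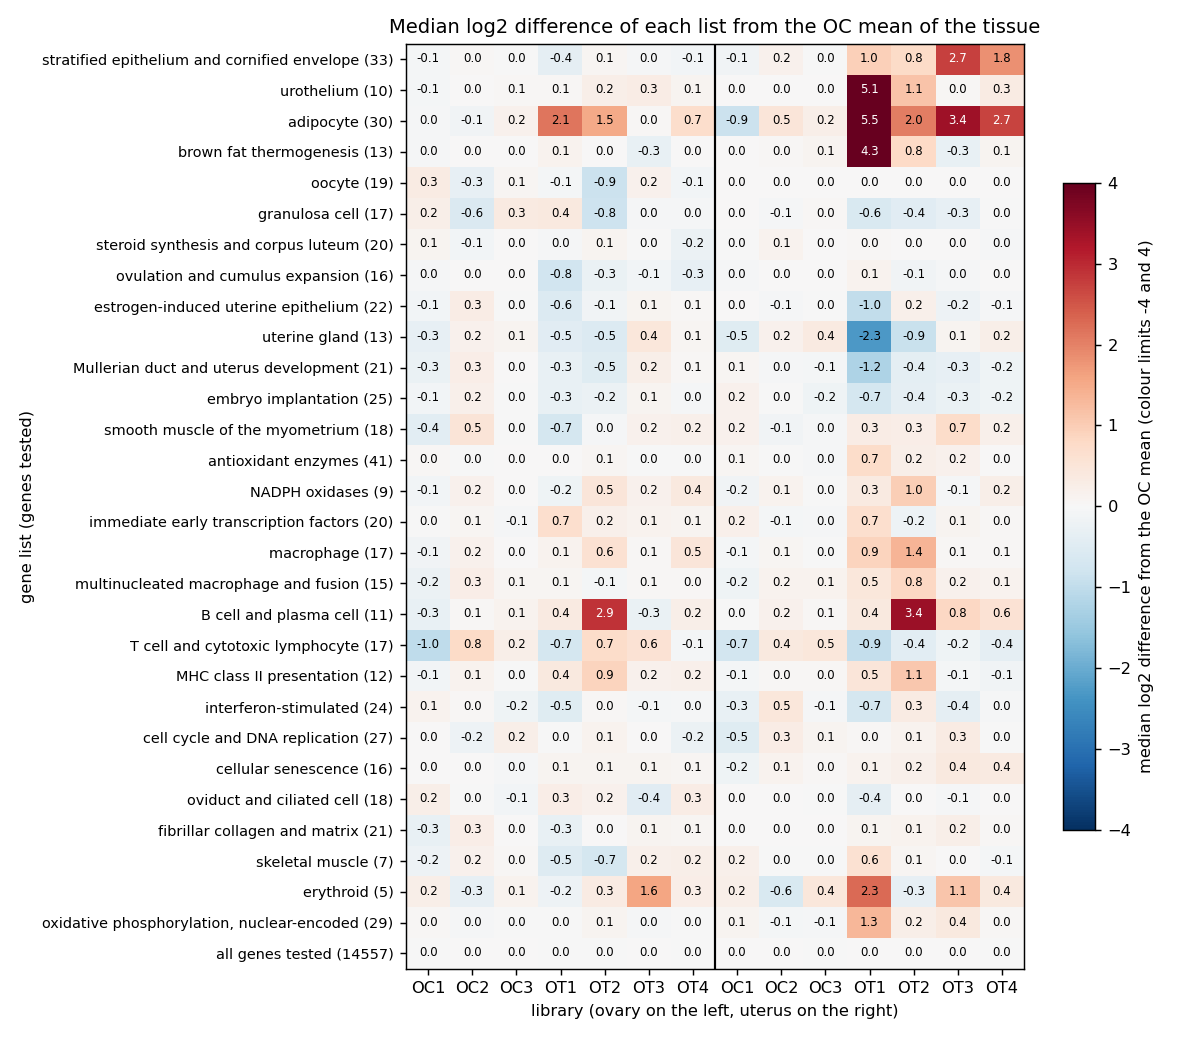
Median distance of each gene list from the OC mean of the same tissue on the log2 scale, for the 7 ovary libraries (left of the line) and the 7 uterus libraries (right). Red is above and blue below the OC mean, with the number of genes tested in brackets. The adipocyte row is at 5.5, 2.0, 3.4 and 2.7 in the OT uteruses and at 2.1, 1.5, 0.0 and 0.7 in the OT ovaries, while the stratified epithelium row is at 1.0, 0.8, 2.7 and 1.8 in the OT uteruses and at -0.4 to 0.1 in the ovaries.

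Of the 55 genes with responses of the same sign in both tissues, 54 had the larger response in the uterus, with a median ovary response of 1.01 and a median uterus response of 3.35. The highest of the 4 OT mice in the tissue difference was OT1 or OT3 in 51 of these 54 genes (26 and 25), OT4 in 3 and OT2 in none. Ces1f, a lipid-hydrolysing carboxylesterase, and Apoc1, an apolipoprotein, led the class with tissue differences of 4.19 (SE 0.82) and 3.93 (SE 1.28). Ces1f was at 0, 0.141 and 0.146 FPKM in OC uteruses and 31, 2.69, 3.5 and 2.05 FPKM in OT uteruses. Pnpla3, a lipase of lipid droplets, followed at 3.29. Fosb was the only gene of the class whose response was larger in the ovary. It was at 11 FPKM in the OT1 ovary, 0.244 to 0.808 FPKM in the other OT ovaries and 0.051 to 0.448 FPKM in OC ovaries. Its call was lost without OC3 (-1.40) or OT1 (-1.23). Without OT1 the class held 27 genes.

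Genes with opposite responses were low in level. In 43 of the 62 genes the ovary response was negative and the uterus response positive (medians -0.70 and 1.18), and in 19 the signs were the other way (medians 0.80 and -1.37). In the tissue difference, which helped to choose them, the groups of mice did not overlap for 44 of the 62, against 7.60% of all genes. OT1, OT2, OT3 and OT4 were the mice farthest from the OC mean in 21, 12, 17 and 12 of the 62. The median level of the 62 genes was 0.710 FPKM in OC ovaries and 0.731 FPKM in OC uteruses. A constant of 0.1 FPKM inside the logarithm weighs at such levels, and with a constant of 1 FPKM the class held 7 genes. The members included Krt5 and Sprr1a, whose negative ovary responses (-0.67 and -1.35) rested on levels under 0.5 FPKM and did not pass the test.

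Of the 34 genes called in both tissues, 31 had the same sign and 3 had opposite signs. These 3 were Cuzd1, Il1rn and Fer1l4. Their promoters are shown with that of Acbd7, which had the most negative tissue difference among the called genes, so that the start regions of the genes with opposite calls can be seen beside their values. The 250 bases before each RefSeq start (GRCm38.p6) are given 5′ to 3′ on the strand of the gene, with matches on either strand in capitals. The motifs searched were the TATA box (TATAAA), the CCAAT box, by those letters, and the core element of nuclear receptors (AGGTCA), which reads TGACCT where it lies on the other strand.
Cuzd1 (chr7:131322293-131322542, minus strand): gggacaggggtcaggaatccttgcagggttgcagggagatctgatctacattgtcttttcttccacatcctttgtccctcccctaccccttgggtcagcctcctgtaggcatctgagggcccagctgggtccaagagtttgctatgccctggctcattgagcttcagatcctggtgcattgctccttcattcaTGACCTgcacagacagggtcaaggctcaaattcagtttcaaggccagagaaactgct
Il1rn (chr2:24336610-24336859, plus strand): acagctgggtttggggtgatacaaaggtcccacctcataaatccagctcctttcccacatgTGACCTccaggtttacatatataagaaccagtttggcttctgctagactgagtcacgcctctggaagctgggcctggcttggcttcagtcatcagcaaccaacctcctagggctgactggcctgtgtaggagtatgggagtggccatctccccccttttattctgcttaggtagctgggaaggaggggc
Fer1l4 (chr2:156052994-156053243, minus strand): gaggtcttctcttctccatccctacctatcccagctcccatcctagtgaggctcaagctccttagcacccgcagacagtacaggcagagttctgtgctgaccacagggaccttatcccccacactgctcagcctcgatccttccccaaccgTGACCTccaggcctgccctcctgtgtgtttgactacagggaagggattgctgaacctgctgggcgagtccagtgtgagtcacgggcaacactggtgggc
Acbd7 (chr2:3335918-3336167, plus strand): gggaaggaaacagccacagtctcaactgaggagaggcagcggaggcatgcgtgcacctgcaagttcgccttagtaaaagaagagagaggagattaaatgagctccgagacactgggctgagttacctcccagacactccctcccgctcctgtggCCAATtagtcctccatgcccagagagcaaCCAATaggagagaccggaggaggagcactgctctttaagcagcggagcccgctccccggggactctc
Cuzd1, Il1rn and Fer1l4 each held AGGTCA on the reverse strand, 57, 189 and 99 bases before the start, and Acbd7 held CCAAT 96 and 67 bases before it. For Il1rn, which has 3 RefSeq windows, the first is shown. AGGTCA was found in 14.02% of the windows of all genes (32851), in 11.3% of those of the tested genes (14420) and in 20.0% of the 50 windows that matched 43 of the 62 opposite genes. CCAAT was found in 33.85%, 34.55% and 32.0% of these sets, and TATAAA in 12.4%, 6.97% and 16.0%. AGGTCA was not particular to the opposite genes. It was in 17.0% of the windows of the uterus-only genes that rose. For the adipocyte and stratified epithelium lists the share was 18.8% and 26.7%. A match describes these letters in this window and is not a site of binding.

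Cuzd1 (chr7:131308554-131322292), an estrogen-regulated gene of the uterine epithelium, rose in the ovary and fell in the uterus. In the ovary it was at 0.179, 0.118 and 0.166 FPKM in OC mice and at 1.86, 0.552, 0.213 and 0.646 FPKM in OT mice. In the uterus it was at 1.59, 0.731 and 0.9 FPKM in OC mice and at 0.0535, 0.0618, 0.291 and 0.711 FPKM in OT mice. The groups did not overlap in either tissue, which was so for 5.88% of all ovary comparisons and 11.7% of all uterus comparisons of a gene. The lowest OC uterus (0.731 FPKM) and the highest OT uterus (0.711 FPKM) were close. The ovary response of Cuzd1 was 1.55 (SE 0.58), its uterus response was -1.91 (SE 0.63), and the tissue difference was -3.46 (SE 0.98, n = 7 mice, adjusted p = 0.807 in limma). Uterus minus ovary was -3.67 in OT1, -2.01 in OT2, 0.32 in OT3, 0.12 in OT4 and 1.91 to 2.60 in OC mice.

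Il1rn (chr2:24336853-24351494), the secreted antagonist of the interleukin 1 receptor, moved the other way. In the ovary it was at 0.772, 1.24 and 1.12 FPKM in OC mice and at 0.48, 0.705, 0.203 and 0.184 FPKM in OT mice. In the uterus it was at 0.233, 0.328 and 0.0992 FPKM in OC mice and at 2.39, 0.796, 0.52 and 0.339 FPKM in OT mice. Again neither tissue overlapped, although the nearest uteruses were at 0.328 and 0.339 FPKM. The responses were -1.33 and 1.53, and the tissue difference was 2.86 (SE 0.61, adjusted p = 0.764 in limma). Fer1l4 (chr2:156019139-156052947), a ferlin family gene, was at 1.34, 1.93 and 1.57 FPKM in OC ovaries and 0.189, 0.641, 0.749 and 0.788 FPKM in OT ovaries. In the uterus it was at 0.917, 2.16 and 1.56 FPKM in OC mice and 3.74, 4.79, 2.19 and 2.12 FPKM in OT mice. The ovaries did not overlap, and the uterus of OT4 lay under that of OC2. The tissue difference of Fer1l4 was 2.42 (SE 0.60).

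**Figure D3:**
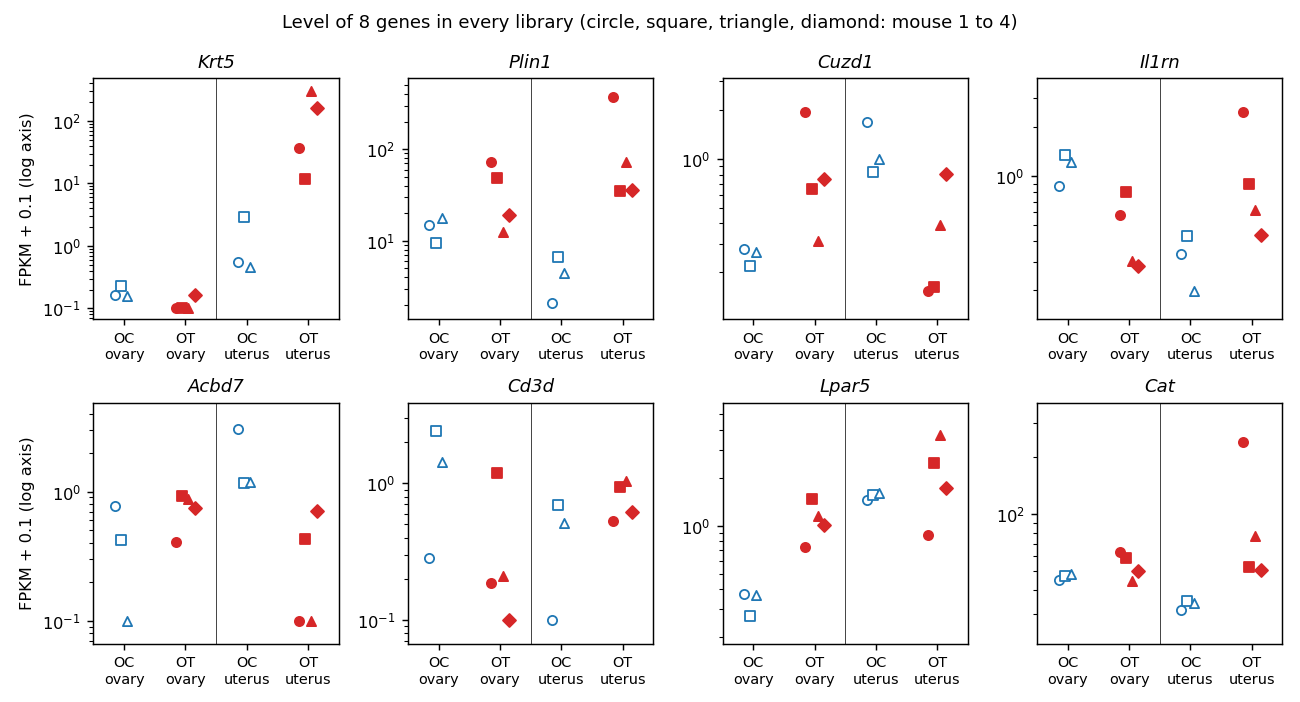
FPKM + 0.1 on a log axis of 8 genes in every library, with open blue symbols for OC and filled red symbols for OT mice, and symbol shapes for mice 1 to 4. Krt5 and Plin1 reach their highest levels in OT uteruses, Cuzd1 and Il1rn separate OC from OT mice in opposite directions in the 2 tissues, and Lpar5 separates them in the ovary.

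Acbd7 (chr2:3336168-3340993), an acyl-CoA-binding protein, was at 0.667, 0.324 and 0 FPKM in OC ovaries and at 0.308, 0.825, 0.782 and 0.642 FPKM in OT ovaries. In the uterus it was at 2.93, 1.07 and 1.09 FPKM in OC mice and at 0, 0.334, 0 and 0.604 FPKM in OT mice. The ovaries overlapped and the uteruses did not. Its ovary response of 1.14 did not pass the test, its uterus response was -2.78, and its tissue difference was -3.92 (SE 0.85). Pvrig, an inhibitory receptor of lymphocytes, was at 0, 0.754 and 0.423 FPKM in OC ovaries and at 0.712, 1.12, 1.8 and 1.22 FPKM in OT ovaries, and in the uterus at 0.975, 3.83 and 3.06 FPKM in OC mice and 0.552, 0.319, 1.11 and 2.08 FPKM in OT mice. The groups overlapped within each tissue, but all per-mouse differences of the OC mice (mean 2.74) lay above those of the OT mice (mean -0.45, highest 0.72). This separation was a condition for naming Pvrig, and 7.60% of all genes tested had no overlap in the difference. Its tissue difference was -3.19 (SE 0.59). Lef1, a transcription factor of Wnt signalling, was at 3.9, 3.87 and 4.13 FPKM in OC uteruses and 0.544, 1, 2.19 and 3.22 FPKM in OT uteruses. In the ovary Lef1 was at 0.674 to 1.1 FPKM in OC mice and 1.05 to 1.91 FPKM in OT mice, and its tissue difference was -2.01 (SE 0.51). Every OT uterus lay under every OC uterus for Lef1. Spink8, Sectm1b, Wfdc3 and Shisal2a were named with them, at -3.40, -2.57, -2.44 and -2.06. Spink8, a Kazal-type protease inhibitor, was listed at 0 in 3 of 4 OT uteruses and lost its call without OC1, whose uterus held 6.78 FPKM (-1.82 without it), without OT2 (-2.95) and without OT4 (-2.93).

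Other genes fell in the OT uterus alone. Ndp, which encodes the Wnt pathway ligand norrin, was at 5.07, 4.13 and 3.77 FPKM in OC uteruses and at 0.788, 1.28, 1.3 and 1.21 FPKM in OT uteruses, while the ovaries were at 0.713 to 1.83 FPKM in both groups. The 4 OT uteruses lay close together and far under the OC uteruses, at the level of the ovary. Its tissue difference was -1.91 (SE 0.43, adjusted p = 0.764 in limma). Scube1, a secreted and cell surface protein, was at 8.85, 6.38 and 5.52 FPKM in OC uteruses and 0.948, 2.28, 1.66 and 3.1 FPKM in OT uteruses. Its ovaries overlapped and its uteruses did not. Meig1, Rdh9 and Sbspon had differences of -2.98, -1.95 and -1.84. Meig1 was listed at 0 in all 4 OT uteruses and in OC3, and it lost its call without OC1 (-1.86). Rdh9 kept its call without 2 of the 7 mice, OC1 and OT4, and lost it without any of the others (-2.09 to -1.36). Sbspon fell from 30.2, 15.5 and 17.6 FPKM to 0.883, 5.79, 10.2 and 6.5 FPKM in the uterus, and its call was lost without OC1 (-1.15) or OC3 (-1.83).

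Genes that changed in the ovary alone were 5, and 4 of them rose. Lpar5, a receptor of lysophosphatidic acid, was at 0.274, 0.172 and 0.266 FPKM in OC ovaries and 0.63, 1.37, 1.05 and 0.912 FPKM in OT ovaries, and it was at 1.36, 1.45 and 1.51 FPKM in OC uteruses and 0.769, 2.38, 3.59 and 1.63 FPKM in OT uteruses. The ovaries did not overlap, and the OT uteruses lay on both sides of the OC uteruses. The responses of Lpar5 were 1.66 (SE 0.33) and 0.33 (SE 0.47), and its tissue difference was -1.34 (SE 0.44, adjusted p = 0.807 in limma). Gprin2, Gm4070 and Dusp2, a phosphatase of MAP kinases in immune cells, had tissue differences of -1.61, -1.30 and -1.17, and Cd226, an activating receptor of lymphocytes, was the member that fell in the ovary, with a difference of 1.08. All 5 genes lost their call without at least 1 mouse, Lpar5 without OC2 (-1.19). The class held 2 genes without OT1, 9 without OC1 or OT3 and 8 without OC2.

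Immediate early genes are induced within minutes of a stimulus. Of 20 tested genes, Fos and Fosb were called with a more negative tissue difference (10.0%, against 2.42% of all genes). None was called with a more positive one, and the median of the list was -0.14. Fos was at 6.14, 2.59 and 2.43 FPKM in OC ovaries and 45.7, 5.14, 5 and 4.38 FPKM in OT ovaries, and at 12.7, 4.12 and 2.96 FPKM in OC uteruses and 47.3, 3.71, 3.47 and 3 FPKM in OT uteruses. OT1 was high in both tissues, and neither response passed the test (1.30 and 0.29). The difference within mice was tight. It was 1.04, 0.65 and 0.27 in OC mice and 0.05, -0.46, -0.51 and -0.53 in OT mice, which gave a tissue difference of -1.02 (SE 0.26, adjusted p = 0.764 in limma). Without OT2, OT3, OT4 or OC1 the Fos difference was -0.98, -0.97, -0.96 and -0.82, under the cutoff of 1 in size. Without the pairing of tissues, neither Fos nor Fosb was called.

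Antioxidant enzymes differed between the tissues for a few members. Of 41 tested genes, 4 (9.76%, against 2.42% of all genes) were called with a more positive uterus response, Sod3, Gsta3, Gsta4 and Cat, and the median of the list was 0.25. Cat (chr2:103453849-103485160), the catalase that breaks down hydrogen peroxide, was at 44.9, 47.1 and 48.3 FPKM in OC ovaries and 63.4, 58.8, 44.7 and 50.2 FPKM in OT ovaries. In the uterus Cat was at 31.2, 34.9 and 34.1 FPKM in OC mice and 240, 52.9, 76.4 and 51 FPKM in OT mice. The OC mice were alike, with differences of -0.52, -0.43 and -0.50, and the OT mice were all higher, at 1.92, -0.15, 0.77 and 0.02. The tissue difference of Cat was 1.12 (SE 0.44, adjusted p = 0.807 in limma). Without OT1 it was 0.70, and its call was also lost without OC1 (1.11), OC2 (1.15), OC3 (1.12) or OT3 (1.08). Sod3, the extracellular superoxide dismutase, was at 1.25, 2.15 and 2.23 FPKM in OC uteruses and 14.1, 5.15, 7.71 and 3.93 FPKM in OT uteruses, with 7.68 to 13.4 FPKM in the ovaries. Its tissue difference was 1.59 (SE 0.41), and those of the glutathione transferases Gsta3 and Gsta4 were 1.58 (SE 0.49) and 1.54 (SE 0.39). These 3 genes did not overlap between the groups in the uterus, which was so for 11.7% of all genes tested. They had been chosen by calls on the same values. The antioxidant list lay 0.78 above the OC mean difference in OT1 and 0.06 to 0.14 above it in the other OT mice. The adipocyte list lay 3.18, 0.19, 3.33 and 1.68 above it in OT1 to OT4. With the mean uterus minus ovary difference of the adipocyte genes in each mouse as a covariate, all 4 genes lost their calls. In that fit 1 other antioxidant gene was called. The tissue difference was then 0.0093 for Cat, 0.75 for Sod3, 0.36 for Gsta3 and 0.56 for Gsta4. By its median gene, the adipocyte difference was also higher in OT1, OT3 and OT4 than in the OC mice. Its part and that of the group cannot be told apart.

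**Figure D4:**
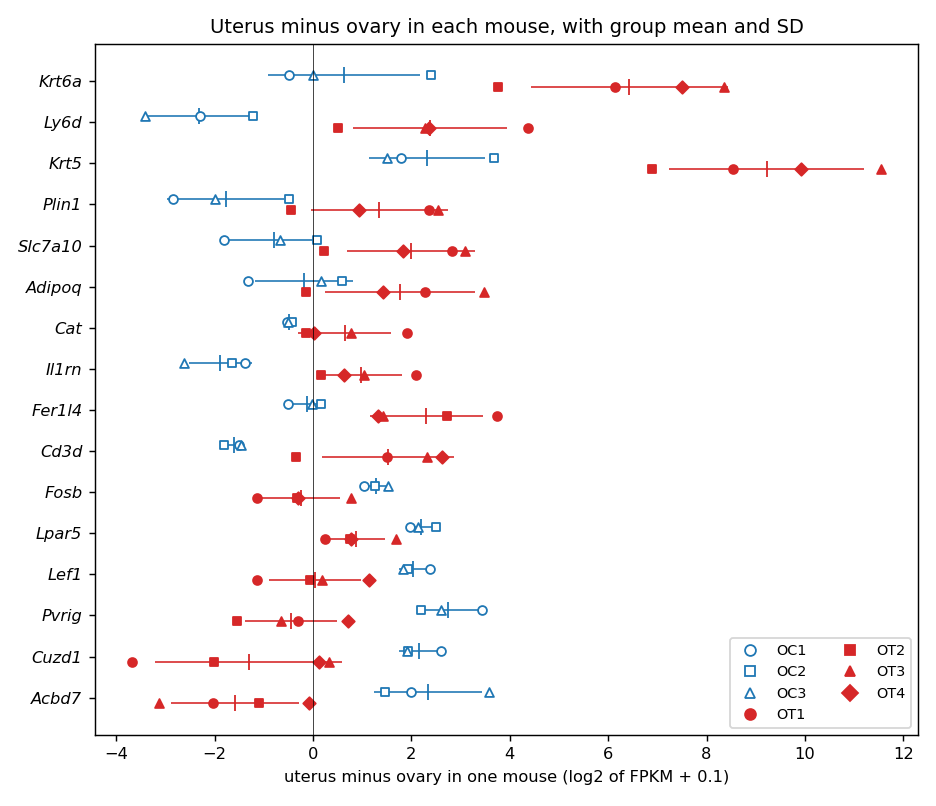
Uterus minus ovary of log2(FPKM + 0.1) in each mouse for 16 genes, with open blue symbols for the 3 OC mice and filled red symbols for the 4 OT mice. Vertical ticks are group means and horizontal lines 1 SD. Krt5 runs from 1.51 to 3.68 in OC mice and from 6.88 to 11.55 in OT mice, and Acbd7, at the bottom, runs from 1.46 to 3.57 in OC mice and from -3.14 to -0.08 in OT mice.

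Immune genes were few. In the list of B cells and plasma cells, Ms4a1, Pou2af1 and Derl3 were called with a more positive uterus response among 11 tested genes (27.3%, against 2.42% of all genes), and none was called when the pairing of tissues was ignored or the mouse was a random block. Derl3, at 1.18 (SE 0.51), lost its call in 14 of 21 alternatives and was 0.71 without OC1. Ms4a1, the B cell surface protein CD20, was at 0.0432, 0 and 0.112 FPKM in OC uteruses and 0.422, 5.99, 0.43 and 0.547 FPKM in OT uteruses, and at 0.183 to 0.468 FPKM in OC ovaries and 0.27, 3.88, 0.337 and 0.0894 FPKM in OT ovaries. OT2 was high in both tissues, so its per-mouse difference, 0.62, stood near those of the other OT mice (0.28 to 1.77) and apart from the OC mice (-1.50 to -1.42). The tissue difference of Ms4a1 was 2.25 (SE 0.57). Pou2af1, a transcriptional coactivator of B cells, had the same shape, with 9.72 FPKM in the OT2 ovary and 12.5 FPKM in the OT2 uterus, and a tissue difference of 2.07 (SE 0.54). Of 17 tested T cell and cytotoxic lymphocyte genes, Cd3d and Klrk1 were called in opposite directions (11.8%, against 2.42% of all genes). Cd3d, a subunit of the T cell receptor complex, was at 0.185, 2.34 and 1.33 FPKM in OC ovaries and 0.0865, 1.09, 0.11 and 0 FPKM in OT ovaries, and at 0, 0.597 and 0.414 FPKM in OC uteruses and 0.426, 0.838, 0.949 and 0.516 FPKM in OT uteruses. Both tissues overlapped, neither response passed the test, and the tissue difference was 3.12 (SE 0.76). Klrk1, the activating receptor NKG2D of natural killer cells, had a tissue difference of -1.79 (SE 0.54). Of 15 genes of multinucleated macrophages and cell fusion, Il1rn and Acp5 were called (13.3%, against 2.42% of all genes). Acp5, tartrate-resistant acid phosphatase, rose in both tissues, with an ovary response of 1.07 and a uterus response of 2.19. Its tissue difference of 1.12 lost its call without OC1 (1.01), OC3 (1.06), OT1 (0.79) or OT3 (0.96).

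Lists of ovarian and uterine function held 0 to 2 called genes each. None of 19 oocyte genes, 17 granulosa cell genes, 25 genes of embryo implantation or 18 smooth muscle genes was called for the tissue difference, and their medians were 0.34, -0.23, -0.13 and 0.42. Of 20 genes of steroid synthesis and corpus luteum, 2 were called (10.0%, against 2.42% of all genes), Hsd17b7 with a more positive and Cyp11a1 with a more negative difference. Both are ovary genes, and Hsd17b7 was at 209 to 336 FPKM in the ovaries against 0.737, 1.15 and 1.21 FPKM in OC uteruses and 6.14, 2.32, 2.93 and 1.8 FPKM in OT uteruses, while Cyp11a1 was at 2456 to 3148 FPKM in the ovaries and 0.665 to 3.31 FPKM in the uteruses. The call of Cyp11a1 was lost without OC2 (-0.96), OT1 (-0.97) or OT4 (-0.98). Of 21 genes of the Mullerian duct and uterus development, Lef1 was called lower and Msx2, a homeobox factor, higher (1.65, SE 0.61). These calls were 9.52% of the list, and 14 of the 21 differences were below 0, against 6974 of 14557 over all genes tested. Msx2 lost its call without OC2 (1.04) or OT1 (1.41). Of 13 uterine gland genes, Sox9 was called, at -1.30 (SE 0.53), and its difference was -0.89 without OT1. Of 22 genes induced by estrogen in the uterine epithelium Cuzd1 was called, and of 16 ovulation genes Tnc, a matrix glycoprotein, at 1.14 (SE 0.42). No gene was called in the lists of NADPH oxidases (9 tested), macrophages (17), MHC class II presentation (12), interferon-stimulated genes (24), cell cycle (27), cellular senescence (16), oviduct and ciliated cells (18), fibrillar collagen and matrix (21), skeletal muscle (7), erythroid cells (5), brown fat (13) or oxidative phosphorylation (29).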

How the data were processed

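RNA-seq of ovaries and uteruses was analysed, 7 libraries of each. Per the labels and the study's methods, libraries were stranded and depleted of rRNA, and the authors trimmed reads with Skewer 0.2.2, mapped them to mm10 with STAR 2.5 and quantified them with Cufflinks 2.2.1. The deposited values were FPKM per gene, already scaled to mapped fragments, and the depth of the libraries is unknown. All 21853 identifiers matched GENCODE M21, and 48 genes shared a symbol. Cuffdiff, the tool of the study, needs the reads and was not run.

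The FPKM were not scaled further. limma 3.58.1 (R 4.3.3; linear fit, then eBayes with its variance trend) was run on the per-mouse differences and on each tissue, and p-values were adjusted by Benjamini-Hochberg over all 14557 genes. For the difference, the variance trend was fitted on the mean level over both tissues. This was set after results had been seen, since a trend on the mean difference, the default, gave Krt5 and other keratins implausibly large errors, and the default is given as an alternative. A change on the log2(FPKM + 0.1) scale understates the change of low genes. The fits were tested on simulated data with known differences. Promoter windows came from RefSeq.

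Same-coded ovary and uterus libraries deviated together weakly. The correlation over genes of their deviations from the group means was 0.07 to 0.25 in the 7 mice (mean 0.14), against -0.24 to 0.25 (mean -0.05) over 18 pairs of different mice. Deviations from a group mean cancel out within the group, which by itself makes the mean over different mice negative when that of the same mice is positive. In the fit with the mouse as a random block, the correlation within a mouse was 0.0689. OC and OT mice with the same number are different animals, and their differences had correlations from -0.05 to 0.07 (mean 0.002).

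The genes named were the 10 with the largest difference in each direction among called genes without overlap, the 5 largest in each class, Klb, Adipoq, Cat, Cuzd1 and Fer1l4, and up to 4 called genes of each of 29 hand-written lists. All members of the stratified epithelium list that were called, and Pparg and Plin4, were added after their values were seen. The genes, lists and comparisons were chosen with earlier results of these data known. The alternatives were other pseudocounts, filters, scalings and eBayes settings, fits without or with the mouse as a block, a replicate block across OC and OT, an adipocyte covariate and leaving out each mouse. Python 3.11.15, pandas 2.3.3, numpy 2.4.6 and matplotlib 3.10.9 were used for the rest.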

Additional observations from a re-analysis of the deposited data

Results flagged for a closer look

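In 118 groups of 4 OT values that spanned at least 0.1 on the log2 scale, 5 had a mouse far from the others by Dixon's ratio, the gap to the nearest value divided by the range. Chance alone flags about 1 in 20 such groups. The ratio was 0.902 for Ucp1, whose uterus minus ovary difference was 11.04 in OT1 and 0 to 1.08 in the other mice. It was 0.873 for Fos, with 0.05 in OT1 and -0.53 to -0.46 in the others. For the B cell and plasma cell list in the uterus it was 0.854, with a median of 3.42 above the OC mean in OT2 and 0.38 to 0.82 in the others. For the oviduct and ciliated cell list in the uterus it was 0.855, with -0.36 in OT1 and -0.05 to 0 in the others. For the list of multinucleated macrophages and fusion in the ovary it was 0.864, with -0.08 in OT2 and 0.04 to 0.06 in the others. No tissue difference passed an adjusted p under 0.05 in limma.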

How the results depend on the processing

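Under 21 alternatives no gene passed an adjusted p under 0.05, and the smallest adjusted p ran from 0.106 without OT2 to 0.988 without OC3. With a constant of 1 FPKM, 165 genes were called with a more positive and 38 with a more negative uterus response, 18 in the ovary and 227 in the uterus, with 0 ovary-only and 7 opposite genes. With no filter, 160 were called lower and 131 in the ovary, with 28 ovary-only and 127 opposite genes. Opposite genes numbered 31 at a mean of at least 1 FPKM and 35 at 0.5 FPKM in each tissue. With no replicate block (the pairing of tissues ignored), genes with the same direction numbered 22, and with the mouse as a random block 25. The replicate block across OC and OT, which left out OT4, called 175 lower, 629 in the uterus and 229 uterus-only genes; its numbers do not pair animals. With the adipocyte covariate, the uterus-only, ovary-only and same-direction classes held 86, 2 and 29 genes, and 44 of the 62 called genes named lost their call, Plin1 (0.89), Klb (0.61), Cuzd1 (-3.02) and Lef1 (-1.39) among them. For 17 genes this was the only loss. The covariate was the mean of the 30 adipocyte genes, taken as uterus minus ovary in each mouse for the tissue difference. For the response of a single tissue it was their mean level in that tissue. The adipocyte list includes Plin1, Klb and Adipoq. For members of that list a smaller difference follows from the setting itself. By its median gene, the adipocyte difference was also higher in OT1, OT3 and OT4 than in the OC mice. With 7 mice its part and that of the group cannot be told apart. The differences of Adipoq (-0.21), Acp5 (-0.026), Upk3a (-1.41) and Ucp1 (-1.86) then reversed, as did Upk3a without OT1 (leaving out each mouse gave -0.72 to 2.98). The cause was not tested.

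Leaving out each mouse gave 200 to 353 genes called higher and 64 to 156 lower (142 without OT2, 156 without OT4), 58 to 139 in the ovary (139 without OT3), 305 to 573 in the uterus, 115 to 224 uterus-only, 2 to 9 ovary-only, 58 to 73 opposite and 27 to 70 same-direction genes (27 without OT1, 36 without OC3). Of 62 called genes named, 35 kept their call without each mouse in turn and 8 (Krt6a, Ly6d, Acbd7, Pvrig, Sectm1b, Ndp, Ces1f and Il1rn) under every alternative that tested them. With the trend on the mean difference, chosen after seeing the data, 7 named genes lost their call, Krt5, Sprr1a, Krt13 and Krt15 among them. Scaling changed 1 named call. Groups of 3 and 4 mice and low FPKM limit what can be told.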

Other observations

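Some lists leaned to a side without a called gene. Over all genes tested, 7583 of 14557 tissue differences were above 0. All 29 nuclear genes of oxidative phosphorylation had a positive tissue difference, with a median of 0.47 and a range of 0.29 to 0.74, and the list lay 1.26, 0.15, 0.43 and 0.03 above the OC mean difference in OT1 to OT4. Without OT1 the median of the list was 0.22, and with the adipocyte covariate it was -0.036. Their summed FPKM was 9055 in the OT1 uterus, 4034 to 4972 in the other OT uteruses and 3701 to 4255 in the OC uteruses, against 3941 to 4391 in the ovaries. Smooth muscle genes had 17 of 18 differences above 0 (median 0.42) and oocyte genes 18 of 19 (median 0.34). The smooth muscle median was 0.22 without OC2, 0.27 without OT1 and 0.76 without OC1, and the oocyte median was 0.017 without OC1, 0.067 without OT2, 0.20 without OC3 and 0.57 without OC2. The oocyte genes summed to 58.7 to 118 FPKM in the ovaries and 8.60 to 17.1 FPKM in the uteruses, where their levels were near 0.

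Brown fat genes were high in a single uterus. The list of 13 genes summed to 783 FPKM in OT1, 31.6 to 52.8 FPKM in the other OT uteruses and 46.1 to 57.9 FPKM in the OC uteruses, and none of its genes was called for the tissue difference. The 5 erythroid genes tested lay 2.27 above the OC mean in the OT1 uterus. The 13 uterine gland genes lay 2.29 under the OC mean in the uterus of OT1 and 0.90 under it in OT2, and 0.10 and 0.24 above it in OT3 and OT4. The T cell and cytotoxic list had 13 of 17 differences below 0, against 6974 of 14557 over all genes tested. Its median was -0.51 (-0.33 without OC1 and -0.28 without OT3).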
